A study of Mus musculus with 4 samples.

Results

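Mast cells of the fetal mouse penis were chosen from single-cell mRNA counts as barcodes with 1000 to 10000 UMIs (unique molecular identifiers, each marking 1 captured mRNA molecule), at most 25% of UMIs in mitochondrial genes, at most 25% in the hemoglobin genes *Hba* and *Hbb*, and at least 3 of 6 mast cell genes detected. The 6 genes were *Cpa3*, *Cma1*, *Mcpt4*, *Tpsb2*, *Kit* and *Hdc*, and a gene counted as detected with 1 UMI or more. The rule found 306 cells among 33704 that passed the cell limits and 47040 barcodes in all. Since these 6 genes chose the cells, their levels and those of every other gene against other cells are given as a description, without a test.

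The data are 10x Genomics 3′ libraries of male genitalia at embryonic day (E) 16.5, when the urethra closes. The 2 DTA- samples of penis tissue (controls) carried no *Nr5a1-Cre* but held the *Rosa-LSL-DTA* allele, in which a stop cassette keeps diphtheria toxin off. The 2 DTA+ samples carried *Nr5a1-Cre*, a transgene that drives Cre from *Nr5a1* sequences, together with *Rosa-LSL-DTA* and *Rosa-LSL-tdTomato*, so that cells with Cre activity make toxin and die. The study describes DTA+ embryos as lacking adrenals and having small testes, so effects of the cells lost from the penis and of the lost adrenal and testis tissue cannot be told apart. The 4 libraries are the replicates, and nothing in the labels says from how many embryos each came, so p-values measure the spread between these samples only.

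Mast cells arise from hematopoietic progenitors, enter connective tissue before birth and mature there under stem cell factor, the ligand of KIT. They store histamine, heparin-bound proteases and serotonin in granules held together by serglycin, and release them when IgE receptors, MRGPR receptors for basic peptides or cytokine receptors are engaged. Connective tissue mast cells are known for chymases and tryptases such as CMA1, MCPT4 and TPSB2, and mucosal mast cells for MCPT1 and MCPT2.

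The upstream sequences of 4 genes are printed because they belong to granule protease genes of the rule that chose the cells (*Cpa3*, *Cma1*, *Mcpt4*) and to the mucosal chymase found in only a few of them (*Mcpt1*). Each runs 5′ to 3′ over the 250 bases before the RefSeq start of the gene in build GRCm38.p6. *Cpa3* is at chr3:20242182-20242431 on the minus strand, *Cma1* at chr14:55944676-55944925 on the minus strand, *Mcpt4* at chr14:56062311-56062560 on the minus strand and *Mcpt1* at chr14:56017714-56017963 on the plus strand. Capitals mark the GATA motif (AGATAA or TGATAA, on either strand, where it reads TTATCT or TTATCA), the MITF-type E-box (CATGTG or its reverse CACATG) and TATAAA (read on the gene's strand), and the 3 motifs share no letters in these windows.
Cpa3: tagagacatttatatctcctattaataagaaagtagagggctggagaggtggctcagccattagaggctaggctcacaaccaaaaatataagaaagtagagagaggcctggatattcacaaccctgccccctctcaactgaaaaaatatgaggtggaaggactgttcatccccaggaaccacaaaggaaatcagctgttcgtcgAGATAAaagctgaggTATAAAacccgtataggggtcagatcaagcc
Cma1: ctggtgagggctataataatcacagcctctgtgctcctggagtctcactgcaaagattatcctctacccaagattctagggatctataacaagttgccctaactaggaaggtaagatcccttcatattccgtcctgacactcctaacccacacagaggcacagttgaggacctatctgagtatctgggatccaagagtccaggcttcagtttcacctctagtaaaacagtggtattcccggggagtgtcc
Mcpt4: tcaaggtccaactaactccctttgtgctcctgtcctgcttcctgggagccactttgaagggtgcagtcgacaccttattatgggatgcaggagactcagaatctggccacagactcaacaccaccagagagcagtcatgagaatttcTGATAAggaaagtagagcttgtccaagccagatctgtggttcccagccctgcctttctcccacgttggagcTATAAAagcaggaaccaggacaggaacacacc
Mcpt1: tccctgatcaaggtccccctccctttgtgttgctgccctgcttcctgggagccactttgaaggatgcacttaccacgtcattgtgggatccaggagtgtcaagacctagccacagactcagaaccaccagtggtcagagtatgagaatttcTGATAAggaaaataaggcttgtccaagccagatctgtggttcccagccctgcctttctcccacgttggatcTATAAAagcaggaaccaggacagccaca
The *Cpa3* sequence held AGATAA 46 bases before the start. *Mcpt4* and *Mcpt1* held TGATAA 103 and 99 bases before theirs. All 3 also held TATAAA, and *Cma1* held none of the motifs. *Mcpt4* and *Mcpt1*, neighbors on chromosome 14, matched at 208 of 254 aligned positions (81.9%), against 50.6% for *Cma1* and *Mcpt4*. Among 32851 promoters of this length, 16.6% held the GATA motif, 12.3% the E-box and 7.59% TATAAA. Of the 5 rule genes with a sequence in the table, 2 held the GATA motif, 0 the E-box and 2 TATAAA. A match is a description of the letters and not a bound site.

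Total UMIs were 73577028 and 53654435 in the DTA- libraries and 50794318 and 50779551 in the DTA+ libraries. They left 7600 and 8433 kept cells in DTA- and 8304 and 9367 in DTA+. Mast cells numbered 76 and 85 in DTA- and 101 and 44 in DTA+, with a median of 5817, 5735, 5512 and 5866.5 UMIs per cell. The upper limit of 10000 UMIs left out 100 further barcodes with at least 3 of the 6 markers. These were 28 and 33 in DTA- and 24 and 15 in DTA+. The cells with the most UMIs are thus missing from the counts and levels given here. Any pair of libraries shared between 31 and 48 cell barcodes. DTA+ replicate 2 stood apart from the other libraries in its mast cells. It had 4 cells in which the 6 markers made up less than 1% of UMIs, while the other libraries had 35, 29 and 36 in the order above.

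The 306 cells formed a range rather than 1 compact group. In 202 cells the 6 markers took at least 1% of UMIs, with a median of 8.16%, and a median of 8 of 14 mast cell genes outside the rule was detected. In the other 104 cells they took a median of 0.132%, a median of 1 of the 14 genes was detected, and 90 of them held at least 3 of 8 mesenchyme genes such as *Col1a1* and *Pdgfra*. Between 0.5 and 2% lay 21 cells, so 1% is a point on a range and not a border. The cells just inside the rule, with 3 markers, numbered 64, had a median of 0.101% and none at 1%. The cells just outside it, with 2 markers, numbered 160 and had a median of 0.0506%, with 1 cell at 1% or more. Of cells with 6 markers, 112 of 113 were above 1%. A median of 7 and 8 of the 14 further genes was detected in cells with 5 and 6 markers, 2 in cells with 4 and 1 in cells with 3. At least 3 mesenchyme genes were held by 54 of 64 cells with 3 markers, 26 of 39 with 4, 26 of 90 with 5 and 16 of 113 with 6. Of cells with 5 markers, 79 of 90 were at 1% or more, against 11 of 39 with 4. The name mast cell was thus better borne out by the further genes in cells with 5 or 6 markers than in those with 3 or 4.

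**Figure D1:**
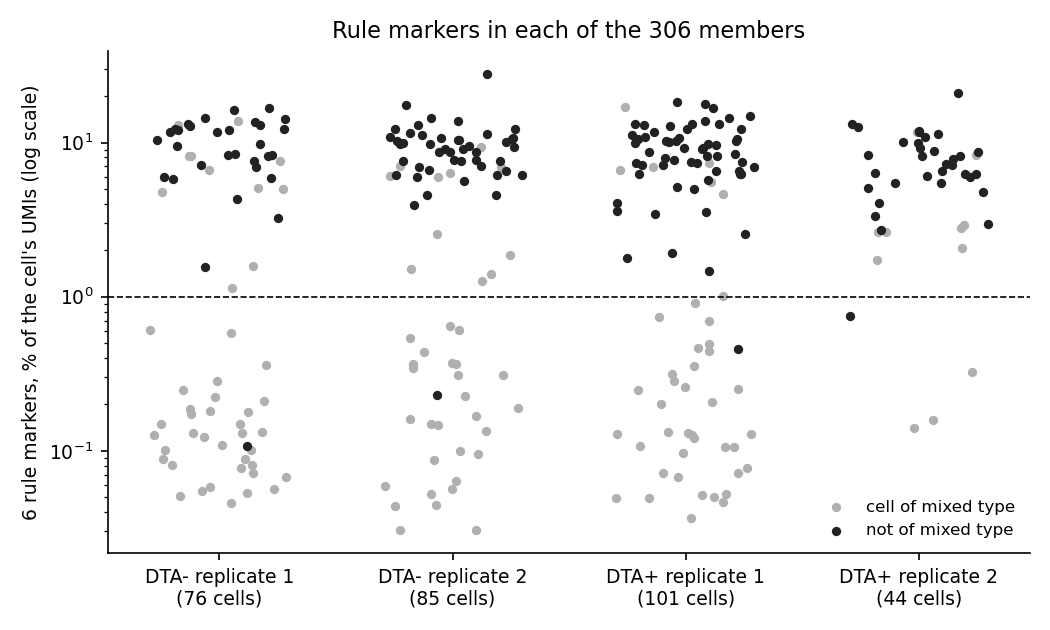
Share of each cell's UMIs in the 6 rule markers (log axis, %) for the 306 cells of the 4 samples. Black points are cells without another cell type's genes, gray points cells of mixed type, and the dashed line is 1%. Most black points lie above 1% in every sample, and DTA+ replicate 2 has few gray points.

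Cells of mixed type were set apart by genes that the rule did not use. A cell counted as mixed with at least 3 detected genes of a mesenchyme, epithelium, endothelium, macrophage, glia or pericyte list, or with over 5% of UMIs in hemoglobin genes. This took in 137 cells (45 and 39 in DTA-, 42 and 11 in DTA+) and left 169 cells (31 and 46 in DTA-, 59 and 33 in DTA+), of which 165 had markers at 1% or more. The 8 mesenchyme genes summed to 4648 and 11638 CPM (UMIs of the gene per 1000000 UMIs of the summed cells) in DTA- and 9890 and 984 CPM in DTA+ over all mast cells, with *Col3a1* the most abundant. In unmixed cells the sums were 129 and 141 CPM in DTA- and 78.0 and 83.3 CPM in DTA+. Neutrophil genes were at 0 in all 4 samples of unmixed cells. The 8 macrophage genes summed there to 228 and 203 CPM in DTA- and 120 and 279 CPM in DTA+, against 125, 134, 152 and 167 CPM in cells without rule markers. The most abundant was *Cx3cr1* in 3 samples, at 187, 101 and 255 CPM, and *Cd68* in DTA- replicate 2, at 114 CPM, while *C1qa*, *C1qb* and *C1qc* were at 0 in all 4. Of 6 genes listed for basophils, *Cebpa* was at 0 in 3 of the samples, and the other 5 had UMIs in all 4. At least 3 of the 6 were detected in 17 of 31 and 30 of 46 unmixed DTA- cells. In DTA+ this held for 26 of 59 and 19 of 33 unmixed cells, and in each sample for 0 cells without rule markers. The list includes *Cd200r3*, *Il4* and *Prss34* and was not used to set mixed cells apart. Whether some members were basophils was not tested. The 6 summed to 8589 and 9617 CPM in DTA- and 3540 and 5789 CPM in DTA+, most of it *Ifitm1*, an interferon-induced membrane protein at 7513 and 8566 against 1921 and 4192 CPM that did not pass the test between genotypes (log2 change -1.44, adjusted p = 0.0641). Erythroid genes summed to 7398, 2676, 1508 and 6502 CPM over all mast cells and to 439, 510, 374 and 196 CPM in unmixed cells. The part of these other mRNAs in the differences between genotypes was not tested beyond the comparison with and without mixed cells. Whether mixed cells were 2 cells in 1 droplet, mast cell mRNA in the droplet of another cell, or neither was not tested.

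In the unmixed cells the granule genes of the rule took a large part of all mRNA. The chymase *Cma1* stood at 40583 and 33902 CPM in DTA- and 37977 and 31458 CPM in DTA+. Carboxypeptidase A3 (*Cpa3*) stood at 24498 and 26474 CPM in DTA- and 23720 and 17372 CPM in DTA+, and was detected in 100% of the unmixed cells of every sample. The tryptase *Tpsb2* ranged between 15206 and 19897 CPM over the 4 samples. Histidine decarboxylase (*Hdc*), which makes histamine, ranged between 5689 and 7718 CPM, and *Kit*, the receptor of stem cell factor, between 479 and 759 CPM. In mesenchyme cells outside the rule, which should lack these mRNAs, *Cpa3* was detected in 1.62% and 1.30% of DTA- and 1.09% and 0.691% of DTA+ cells. The median depth of those cells was 5117, 4266, 3690 and 3688 UMIs, against 5796, 6716.5, 5485 and 5835 UMIs in unmixed mast cells. *Cma1* was detected in 3.06%, 2.33%, 2.52% and 1.17% of the mesenchyme cells.

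*Mcpt4*, the chymase of connective tissue mast cells, was unevenly spread among them. It summed to 5373 and 6715 CPM in DTA- and 7262 and 6916 CPM in DTA+. No *Mcpt4* UMI was found in 41.9% and 37.0% of unmixed DTA- cells and in 30.5% and 33.3% of unmixed DTA+ cells, while 74 of the 169 cells held 10 UMIs or more. Across the cells of a sample, the shares of *Cpa3* and *Cma1* in each cell's UMIs rose together, with Spearman's rho between 0.64 and 0.89. For *Mcpt4* and *Cma1*, rho lay between -0.02 and 0.24, for *Hdc* and *Cma1* between -0.02 and 0.11 and for *Kit* and *Cma1* between -0.26 and 0.19, so a low rho was not particular to *Mcpt4*. These are descriptions over 31 to 59 cells that share a library and differ in depth.

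Beyond the rule, the 25 leading genes and those of the mast cell lists are described by their roles. By the lowest of the 4 sample ratios to cells without any rule marker, *Srgn*, the core protein of the granule matrix, led 2121 candidate genes. It stood at 8952 and 10121 CPM in unmixed DTA- and 7707 and 6470 CPM in unmixed DTA+ cells, against a mean of 12.9 CPM in cells without markers and 637 CPM in macrophages. *Serpinb1a*, an inhibitor of serine proteases, ranged between 2155 and 3371 CPM against 4.01 CPM. *Rab27b*, which moves secretory granules, ranged between 725 and 1148 CPM against 9.06 CPM. Amine handling was present with *Slc18a2*, the vesicular transporter, at 187 to 331 CPM. *Tph1*, which makes the serotonin precursor, was at 145 to 500 CPM, and *Slc6a4*, the serotonin transporter, at 380 to 889 CPM. *Cd63*, a granule membrane protein found in many cell types, was at 1892 to 2110 CPM against 745 CPM in cells without markers.

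Receptor genes are given for named members only. In unmixed cells, 13 of 28 listed receptor and adhesion genes and 9 of 13 of IgE signaling had enough UMIs to be tested between genotypes. *Fcer1g*, the signaling chain shared by Fc receptors, was detected in 100% of unmixed cells at 2302 to 3830 CPM, and stood at 2719 CPM in macrophages. *Ms4a2*, the beta chain of the IgE receptor, was at 71.5 to 138 CPM. *Fcer1a*, its IgE-binding chain, was at 11.7 and 117 CPM in DTA- and 3.25 and 0 CPM in DTA+, in at most 15.2% of a sample's cells, although the cells had granule proteases at high levels. *Il1rl1*, the receptor of interleukin-33, was at 614 to 926 CPM against 0.123 CPM in cells without markers. *Csf2rb*, the common beta chain, was at 614 to 1269 CPM, but reads of its near-identical neighbor *Csf2rb2* could be split between them. The adenosine receptor *Adora3* was at 262 to 377 CPM, and *Cd200r3* at 304 to 359 CPM. *Gata2*, a transcription factor that mast cells need, was at 602 and 600 CPM in DTA- and 917 and 989 CPM in DTA+, against 2.15 CPM in cells without markers. *Gata1* did not exceed 46.8 CPM, and *Mitf* was at 64.3 to 124 CPM.

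Enzymes and secreted factors completed the profile. *Hpgds*, which makes prostaglandin D, was at 230 to 321 CPM, close to its 225 CPM in macrophages. *Cyp11a1*, the enzyme that starts steroid synthesis by cleaving the side chain of cholesterol, was at 403 and 455 CPM in DTA- and 601 and 470 CPM in DTA+, against 0.140 CPM in cells without markers and 0 in macrophages. It was detected in 77.4% to 87.9% of the unmixed cells of a sample. *Calca*, the precursor of calcitonin gene-related peptide, was at 946 to 2192 CPM against 1.31 CPM. The cytokine *Il4* was at 228 to 465 CPM, and *Ccl1* at 255 to 596 CPM. The other genes of the 25 leading ones were *Fxyd5*, *Ctla2a*, *Rac2*, *Gpr65*, *Tyrobp*, *Rgs1*, *Slc7a5*, *Lat2*, *Otulinl*, *Kcne3*, *Laptm5*, *Samsn1* and *Arhgdib*. *Laptm5* had a mean of 698 CPM in unmixed mast cells and 799 CPM in macrophages, and *Ctla2a* had 2679 CPM against 724 CPM in endothelium. Of the 25, 17 had an upstream sequence in the RefSeq table, 5 with the GATA motif, 5 with the E-box and 4 with TATAAA. Of all 32851 promoters, 16.6%, 12.3% and 7.59% held these motifs.

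**Figure D2:**
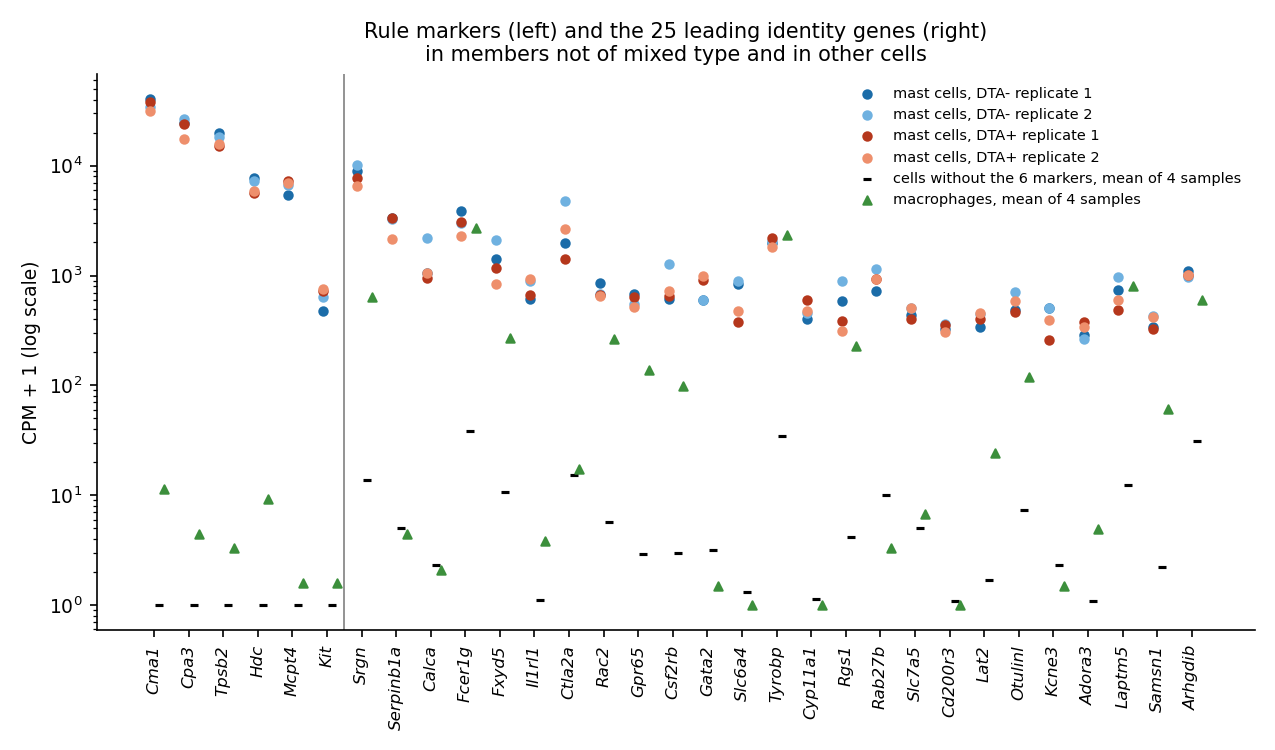
Levels (CPM + 1, log axis) of the 6 rule markers and the 25 leading identity genes. Circles are unmixed mast cells of each sample, dashes the mean of cells without any rule marker and triangles the mean of macrophages. The circles of all 4 samples lie above the dashes for every gene shown, while *Fcer1g*, *Tyrobp* and *Laptm5* reach similar levels in macrophages.

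Several granule and chemokine genes were confined to a few cells. Among the 169 unmixed cells, *Mcpt2* was detected in 27 cells, but 5 cells had 10 UMIs or more and held most of its 630 UMIs, the top 3 alone 80.6%. All 5 also had 10 or more UMIs of *Mcpt4*. *Mcpt8*, a protease of basophils, had 126 of its 145 UMIs in 1 cell of DTA+ replicate 1. *Prss34*, detected in 59 cells, was spread more evenly, with 7.14% of its UMIs in the top cell. *Ccl1* was detected in 32.2% to 35.5% of the cells of every sample. Since *Mcpt1*, *Mcpt2* and *Mcpt4* are close paralogs, as are *Tpsab1* and *Tpsb2*, reads may have been assigned between them and their counts are uncertain.

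Mitotic mRNA was detected in a smaller share of unmixed cells than of cells without rule markers in each sample, in some by a small margin. After thinning each cell to 1000 UMIs, at least 2 genes of the G2/M list were detected in 6.45% and 6.52% of DTA- and 3.39% and 3.03% of DTA+ unmixed cells. In cells without rule markers the shares were 11.2% and 12.5% in DTA- and 8.10% and 6.34% in DTA+. Without thinning they were 16.1%, 13.0%, 8.47% and 9.09% in unmixed mast cells and 18.5%, 18.9%, 12.4% and 10.0% in cells without markers, in the same order. The thinned shares in mast cells rest on 1 to 3 cells of a sample.

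The share of mast cells among kept cells did not differ between genotypes beyond the spread of the samples. It was 1.00% (95% exact binomial interval 0.789 to 1.25%) and 1.01% (0.806 to 1.24%) in DTA- and 1.22% (0.992 to 1.48%) and 0.470% (0.342 to 0.630%) in DTA+. The DTA+ samples lay on either side of both DTA- samples. The means were 1.00% ± 0.00562 and 0.843% ± 0.528 (SD, n = 2 samples each), which is a log2 ratio of -0.25 with p = 1 in an exact two-sided permutation test, which cannot go below 0.333 with 2 against 2 samples. In unmixed cells the shares were 0.408% and 0.545% in DTA- and 0.711% and 0.352% in DTA+, and the log2 ratio was 0.16. Over all mast cells the ratio was 0.28 without DTA+ replicate 2 and -1.10 without DTA+ replicate 1. The intervals cover counting error only.

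Between the genotypes, counts were summed over the mast cells of each sample and tested in edgeR by quasi-likelihood, with p-values adjusted over all genes tested after Benjamini and Hochberg. Changes are log2 of DTA+ over DTA-, with their standard error (SE). Over all 306 cells, 0 of 5599 genes (0%) had an adjusted p under 0.05, while 243 (4.34%) had an unadjusted p under 0.05 and DESeq2 called 3. Without DTA- replicate 1, 8 were called, without DTA+ replicate 1, 164, and without DTA+ replicate 2, 36. In 33.9% of the genes tested the genotypes did not overlap. The genes with the smallest p among those of at least 50 CPM were *Itga4*, *Runx1*, *Mcpt1*, *Rprm* and the reporter *tdTomato* on the higher side in DTA+ and *AA467197*, *Ctsj*, *Ptn*, *Igfbp2* and *Map1b* on the lower side. None of them passed.

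The last 3 of these had nearly all their UMIs in mixed cells. *Ptn*, a growth factor of mesenchyme, had 355 and 398 UMIs in DTA- and 165 and 48 UMIs in DTA+ over all mast cells, but 2, 5, 6 and 7 UMIs in the unmixed cells. *Igfbp2* had 231, 157, 63 and 21 UMIs over all mast cells and 3, 3, 2 and 1 in unmixed cells. *Map1b*, which encodes a microtubule-associated protein, had 83, 121, 46 and 13 UMIs over all mast cells and 0, 1, 1 and 0 in unmixed cells. Over all other kept cells, *Igfbp2* had a log2 change of -1.52 (adjusted p = 0.00454). *AA467197* had 34, 79, 4 and 1 UMIs over all mast cells and 33, 73, 4 and 0 in unmixed cells, so its mRNA lay almost wholly in the latter.

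With cells of mixed type left out, 20 of 3015 genes (0.663%) were called, 5 (0.166%) higher and 15 (0.498%) lower in DTA+. An unadjusted p under 0.05 was found for 287 genes (9.52%). In 39.6% of the genes tested the genotypes did not overlap, as was so for all 20. None of the 20 is in a list that set mixed cells apart. All 20 had the same direction over all mast cells, and 19 had an unadjusted p under 0.05 there, with adjusted p between 0.0762 and 0.999. Those sums include the unmixed cells that gave the calls, so they are not a separate check. With fewer libraries more genes were called, 111 and 76 without each DTA- library and 41 and 37 without each DTA+ library. Of the 20, 13 were called with each library left out in turn. *Cd24a* and *Fbp1* were lost without DTA- replicate 2, *Cd55* without DTA+ replicate 2, *Itga4*, *Mcpt1* and *Smpx* without DTA+ replicate 1, and *Padi2* without either DTA- replicate 2 or DTA+ replicate 1. In each sample 1 unmixed cell held only 3 markers, and with these 4 cells left out, a comparison added after seeing the data, 39 of 2928 genes (1.33%) were called, 9 (0.307%) higher and 30 (1.02%) lower. They held 18 of the 20, all but *Ccl3* and *Ifitm3*. DESeq2 called 10 genes in unmixed cells, 1 higher and 9 lower, and 8 of these 10 were among the 20.

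Among the lower genes, *Ctsj* (ENSMUSG00000055298, chr13:61000179-61005959, minus strand, GRCm38), a cathepsin of a family known from the placenta, had 28 and 114 UMIs in DTA- and 3 and 0 UMIs in DTA+ unmixed cells. Its level was 278 ± 162 CPM in DTA- and 4.88 ± 6.90 CPM in DTA+ (SD, n = 2 each), a log2 change of -5.54 (SE 0.64, adjusted p = 0.00054). The change was -9.01 without DTA+ replicate 1, with 0 UMIs left in DTA+, and -4.81 without DTA- replicate 2. *Ctsj* came from 2 and 15 cells in DTA- and 1 and 0 in DTA+. In cells without markers *Ctsj* did not exceed 0.0260 CPM in any sample, so it was nearly absent from those cells. *AA467197* (ENSMUSG00000033213, chr2:122636986-122641191, plus strand) had 33 and 73 UMIs in 12 and 20 DTA- cells and 4 and 0 UMIs in 2 and 0 DTA+ cells. Its log2 change was -4.81 (SE 0.54, adjusted p = 0.00054). The size depended on the library, at -8.67 without DTA+ replicate 1, with 0 UMIs left in DTA+, and -4.12 without DTA+ replicate 2. *AA467197* was below 1 CPM in the other kept cells of every sample.

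*Thbs1*, which encodes the matrix protein thrombospondin 1 (ENSMUSG00000040152, chr2:118111876-118127133, plus strand), had 51 and 206 UMIs in DTA- and 11 and 1 UMIs in DTA+, a log2 change of -4.49 (SE 0.54, adjusted p = 0.00054). It was found in 4 and 18 DTA- cells and 4 and 1 DTA+ cells, and 42 of the 51 UMIs in DTA- replicate 1 came from 1 cell in which the 6 markers took 0.108% of UMIs. Without the 4 unmixed cells with 3 markers it had 9 and 206 against 11 and 1 UMIs, a log2 change of -4.11 (adjusted p = 0.00762), with most of its UMIs in DTA- replicate 2. Over all unmixed cells its log2 change was -6.61 without DTA+ replicate 1 and -3.78 without DTA- replicate 2. *S100a6* (ENSMUSG00000001025, chr3:90612882-90624181, plus strand), a calcium-binding protein, had 38 and 89 against 11 and 3 UMIs, a log2 change of -3.33 (SE 0.40, adjusted p = 0.00054). Without those 4 cells it had 22 and 86 against 2 and 3 UMIs, a log2 change of -4.45. In the other kept cells it stood at 586 and 606 CPM in DTA- and 542 and 516 CPM in DTA+, with a log2 change of -0.25 (adjusted p = 0.284). *Tac1*, the precursor of substance P, had 25 and 71 against 1 and 3 UMIs, from 3, 6, 1 and 1 cells, a log2 change of -4.62 (SE 0.55, adjusted p = 0.00054). A single cell held 59 of its 100 UMIs, so this call rests on few cells. *Hapln1*, which links hyaluronan to proteoglycans, had 28 and 185 against 8 and 16 UMIs and was found in 9 and 37 DTA- and 5 and 9 DTA+ cells. With each library left out in turn, the log2 change of *S100a6* ranged from -4.21 to -2.95 and that of *Tac1* from -5.80 to -3.79.

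Of 13 receptor and adhesion genes tested, 9 were lower in DTA+, and of these *Mrgprb1* alone was called. *Mrgprb1* (ENSMUSG00000070547, chr7:48444113-48456342, minus strand), of the family that senses basic peptides, had 57 and 194 UMIs in DTA- and 51 and 6 UMIs in DTA+. Relative to all UMIs of the cells this was 333 and 669 CPM against 166 and 29.4 CPM, a log2 change of -2.32 (SE 0.49, adjusted p = 0.0493). Its neighbor *Mrgprb2*, a receptor for basic secretagogues, was at 234 and 314 against 127 and 98.0 CPM, a log2 change of -1.32 that did not pass (adjusted p = 0.0641). The pair are close paralogs, so their split is uncertain. *Tnfrsf9*, *Cd24a* and *Cd55* were in no list and are named because they were called. *Tnfrsf9*, a costimulatory receptor, had 30 and 114 against 18 and 9 UMIs (log2 change -2.51, adjusted p = 0.00861). *Cd24a*, a glycan-rich surface protein, had 18 and 46 against 4 and 6 UMIs (log2 change -2.78, adjusted p = 0.0161). DESeq2 gave *Cd24a* a log2 change of -2.77 and did not call it (adjusted p = 0.129). *Cd55*, which limits complement, had 39 and 140 against 38 and 12 UMIs (log2 change -1.97, adjusted p = 0.0370). The remaining lower genes were *Fbp1*, *Ifitm3*, *Padi2*, *N4bp2l1* and *Smpx*, with log2 changes between -3.55 and -1.71. For *N4bp2l1*, DESeq2 gave a log2 change of -2.08 and no call (adjusted p = 0.108).

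**Figure D3:**
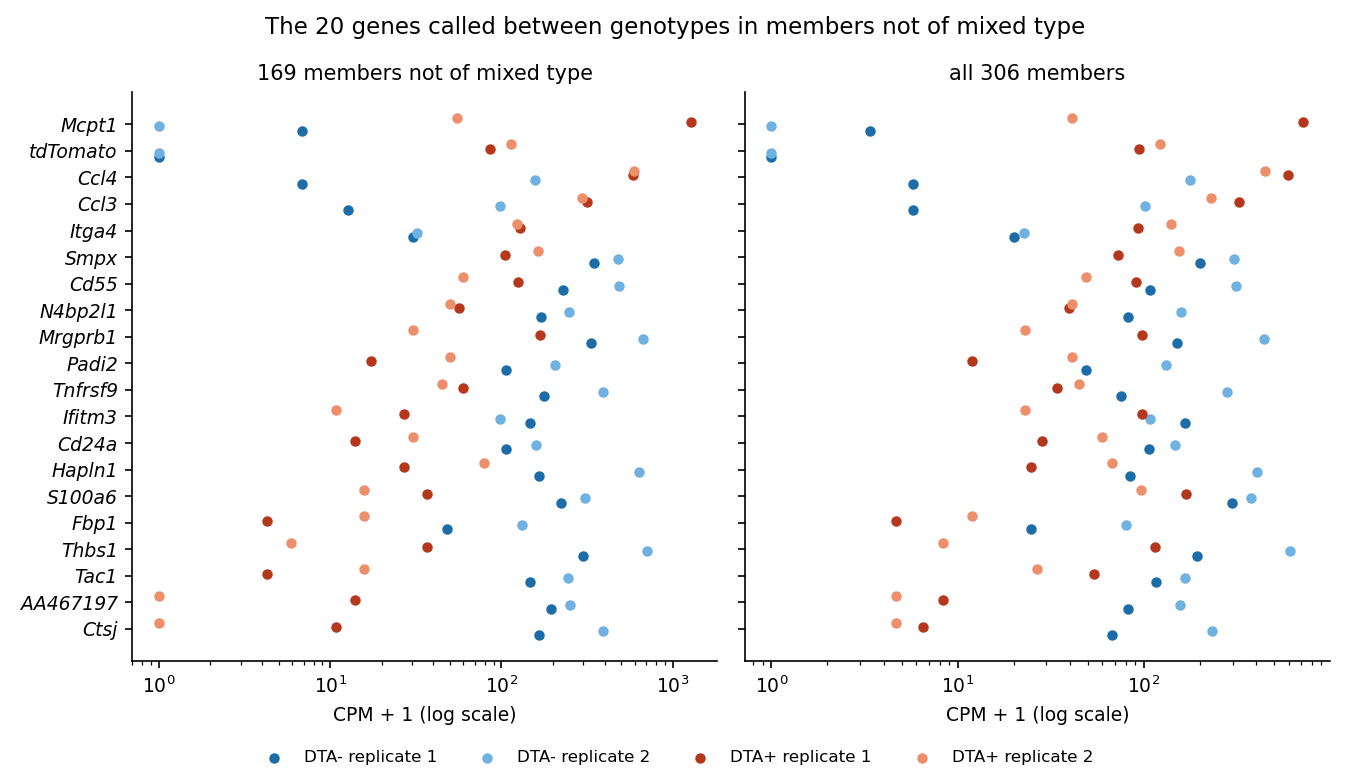
Levels (CPM + 1, log axis) of the 20 called genes per sample in the 169 unmixed cells on the left and in all 306 mast cells on the right. Blue points are DTA- and red points DTA+ samples. The genotypes do not overlap for any of the 20 genes in either panel, although none passed the test over all cells. The cells on the right include those on the left.

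The lower genes were also counted cell by cell. Of the 15, a median of 5 and 7 genes were detected per unmixed DTA- cell and 2 and 2 per DTA+ cell. At least 5 were detected in 19 of 31 and 39 of 46 DTA- cells, against 4 of 59 and 1 of 33 DTA+ cells. The median depth was 5796 and 6716.5 UMIs in DTA- and 5485 and 5835 UMIs in DTA+, so DTA- replicate 2 was the deepest. The 15 genes were chosen by this same difference, so these counts describe how it was spread over cells and carry no test.

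**Figure D4:**
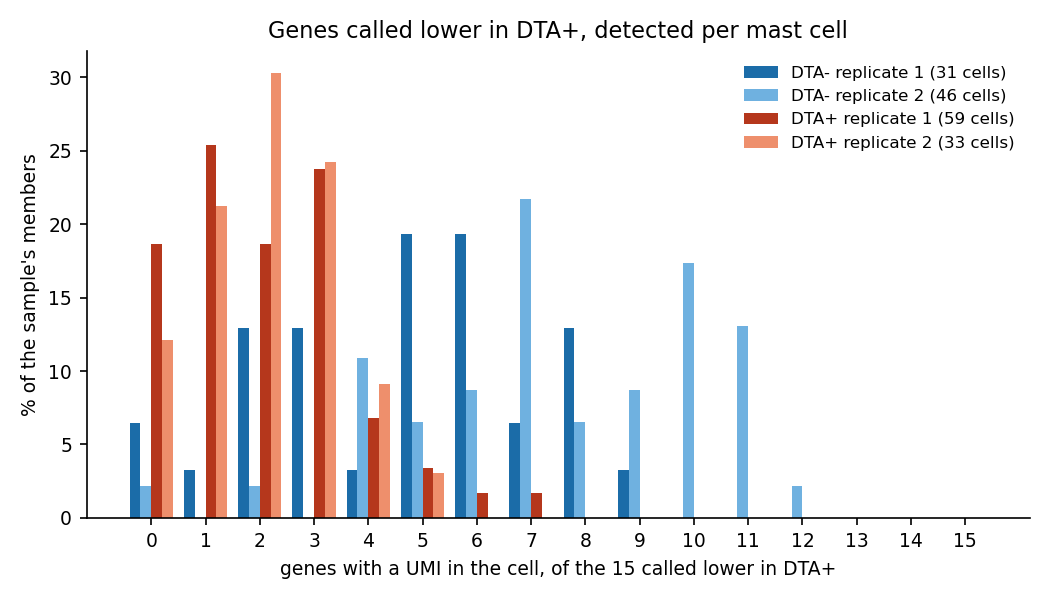
Share of each sample's unmixed mast cells (%) by the number of the 15 lower genes detected in the cell. DTA+ bars (red) lie mostly at 0 to 4 genes, and DTA- bars (blue) extend to 12.

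Of the 5 higher genes, *Itga4* was the most widely detected among endogenous genes. DESeq2 called 1 higher gene in unmixed cells, the reporter *tdTomato*, and so did not call *Itga4*, *Mcpt1*, *Ccl3* or *Ccl4*. *Itga4* (ENSMUSG00000027009, chr2:79255426-79333123, plus strand), the alpha 4 integrin chain that binds VCAM1, had 5 and 9 UMIs in DTA- and 39 and 25 UMIs in DTA+, from 2 and 6 against 27 and 14 cells. Its level was 30.1 ± 1.27 CPM in DTA- and 125 ± 3.06 CPM in DTA+ (SD, n = 2 each), a log2 change of 1.99 (SE 0.41, adjusted p = 0.0410). In DTA- replicate 1, 4 of the 5 UMIs came from the unmixed cell with 3 markers, and without the 4 such cells *Itga4* had 1 and 9 against 39 and 25 UMIs (log2 change 2.50, adjusted p = 0.0121). The chemokines *Ccl3* and *Ccl4* had 2 and 28 against 97 and 60 UMIs and 1 and 45 against 181 and 121 UMIs. Their log2 changes were 2.27 (adjusted p = 0.0372) and 2.66 (adjusted p = 0.0389), but they were found in 12 and 14 of the 169 cells. Of the *Ccl4* UMIs, 44 of 45 in DTA- replicate 2, 47 of 181 in DTA+ replicate 1 and 101 of 121 in DTA+ replicate 2 came from 1 cell each, the unmixed cell of that sample with 3 markers. Without the 4 such cells *Ccl3* had 2 and 4 against 19 and 11 UMIs and did not pass (adjusted p = 0.121), and *Ccl4* had 0 and 1 against 134 and 20 UMIs and did (adjusted p = 0.000263). The 2 chemokines lie side by side and are similar in sequence.

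*Mcpt1*, whose upstream sequence is printed with that of *Mcpt4*, had 1 and 0 UMIs in DTA- and 391 and 11 UMIs in DTA+ (adjusted p = 0.0286). DESeq2 did not call it. The ratio of summed CPM was 362, with a 95% exact interval of 64.6 to 14341 that covers counting error only. It came from 6 cells, and 1 cell held 252 of the 403 UMIs (62.5%). Of the 4 cells with at least 10 UMIs, 3 also had at least 10 of *Mcpt2* and all 4 at least 10 of *Mcpt4*. With no upper limit on UMIs per cell, its log2 change over all mast cells turned to -0.15.

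The reporter *tdTomato*, whose allele the methods give to DTA+ embryos, was found in DTA+ mast cells as in other DTA+ cells. The methods also say that every sequenced mouse held the Cre and reporter alleles, while the control genotype stated for this experiment is without Cre and names no reporter allele. Absence of Cre and absence of the reporter allele in DTA- therefore cannot be told apart here. It had 0 UMIs in DTA- and 26 and 23 UMIs in unmixed DTA+ mast cells, at least 14.7-fold higher over the floor of 3 counts for the DTA- group (adjusted p = 0.00299). It was found in 28.8% (95% exact interval 17.8 to 42.1%) and 39.4% (22.9 to 57.9%) of the unmixed cells. In cells without rule markers the shares were 22.4% and 21.8%, in macrophages 24.1% and 17.2%, and in endothelial cells 17.2% and 22.3%. Median depths were 5485 and 5835 UMIs in unmixed mast cells and 3632.5 and 3660 UMIs in cells without markers. Thinned to 1000 UMIs, the shares were 3.39% and 9.09% in unmixed mast cells and 7.06% and 6.78% in cells without markers. No mast cell held more than 7 reporter UMIs, and the methods describe a low background of this transcript in most cells.

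The mast cell gene lists showed few called genes. Of 181 list genes, 127 were tested over all mast cells with 0 called, and 95 in unmixed cells with 5 called, namely *Mcpt1*, *Itga4*, *Ccl3*, *Ccl4* and *Mrgprb1*. Over all genes tested in unmixed cells 0.663% were called, 0.166% higher and 0.498% lower. The 6 rule markers chose the cells, so their median log2 change of -0.25 in unmixed cells, beside 0.01 over all genes tested there, is a description without a test. Of 9 transcription factors tested, 8 were higher and 1 lower in DTA+, none called, with a median of 0.62. Among them *Gata2* was at 601 ± 1.72 CPM in DTA- and 953 ± 51.4 CPM in DTA+ (SD, n = 2 each), with a log2 change of 0.62 (adjusted p = 0.364). *Runx1*, a regulator of blood cell formation, had 1 and 8 against 26 and 19 UMIs (log2 change 2.14, adjusted p = 0.0806).

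Of 15 cytokines and chemokines tested, 10 were higher and 5 lower, 2 of them called, with a median of 0.62. Over all genes tested in unmixed cells, 0.166% were called higher and 0.498% lower. *Il13* was at 76.0 and 148 CPM in DTA- and 273 and 455 CPM in DTA+ (log2 change 1.59, adjusted p = 0.0641). *Il6* and *Csf1* were also higher, at adjusted p = 0.147 and 0.140, while *Tnf* was lower and overlapped between genotypes. Of 9 granule proteases tested, 6 were higher and 3 lower, 1 of them called. Of 13 receptors and adhesion genes, 4 were higher and 9 lower, with 1 called in each direction and a median of -0.50. Of 9 genes of IgE signaling, 4 were higher and 5 lower, none called, and of 3 genes of eicosanoid synthesis, 1 was higher and 2 lower, none called.

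**Figure D5:**
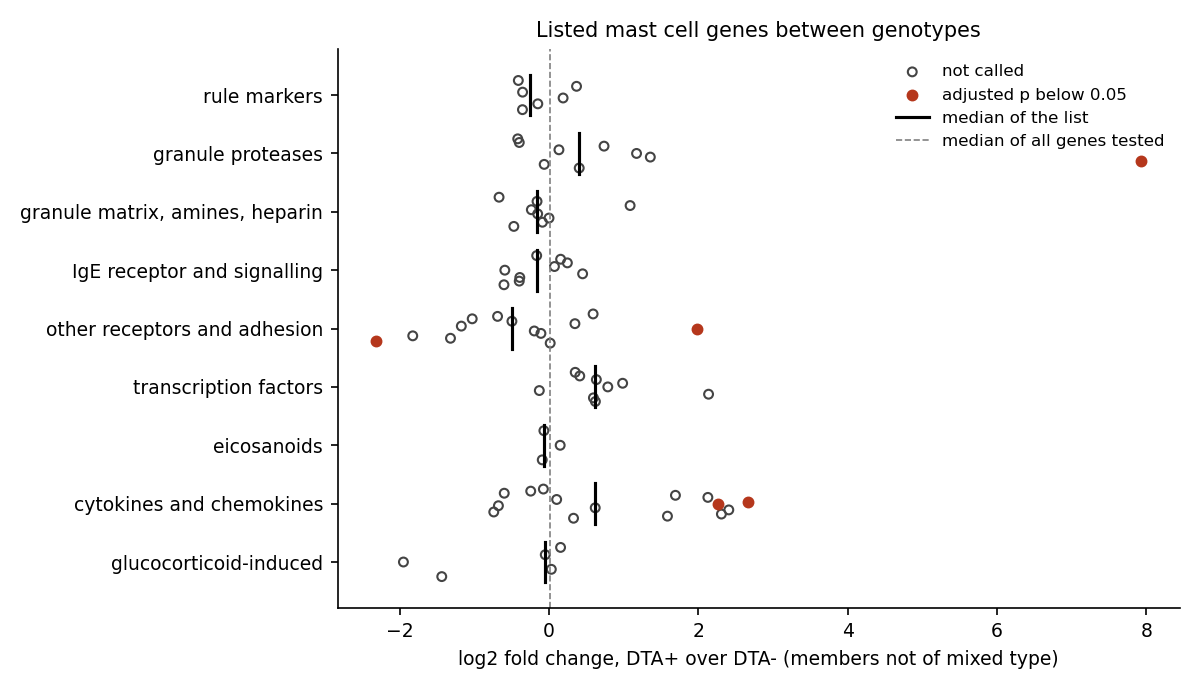
Log2 fold changes (DTA+ over DTA-) in the 169 unmixed mast cells by gene list. Each circle is 1 gene, filled where the adjusted p was below 0.05, with black bars for the list medians and a dashed line for the median of all genes tested. Filled circles appear in 3 lists, and most transcription factors lie to the right of the dashed line.

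Genes induced by glucocorticoids were read because DTA+ embryos lack adrenals. Over all mast cells 9 of 15 were tested, with 3 higher, 6 lower and none called, and a median of -0.76. In unmixed cells 5 were tested, with 2 higher, 3 lower and none called, and a median of -0.05. *Fkbp5*, a co-chaperone of the glucocorticoid receptor, had 19 and 24 UMIs in DTA- and 7 and 2 UMIs in DTA+ mast cells, without overlap, a log2 change of -2.05 (SE 0.49, adjusted p = 0.927). In other kept cells it fell from 77.6 ± 1.89 to 13.1 ± 0.275 CPM (SD, n = 2 each; log2 change -2.57, adjusted p = 0.00148). There, 96 of 16322 genes (0.588%) were called, 49 (0.3%) higher and 47 (0.288%) lower, and 3 of the 15 glucocorticoid genes were among the lower ones. In unmixed mast cells it had 8, 8, 4 and 1 UMIs, too few to be tested. *Mt1*, a metallothionein, was at 497 and 238 CPM in DTA- and 130 and 53.9 CPM in DTA+ unmixed cells (log2 change -1.95, adjusted p = 0.0614). Of 11 cell cycle genes of G2/M tested over all mast cells, 10 were lower and 1 higher, none called, with a median of -1.05. In unmixed cells 1 was tested (-0.26), and in other kept cells all 16 were lower, none called, with a median of -0.42.

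The genotype difference in mast cells was set against that in cells without any rule marker by an interaction term. Over all mast cells, 0 of 5599 genes (0%) had an adjusted p under 0.05 and 295 (5.27%) an unadjusted p under 0.05, while edgeR's likelihood ratio test called 19 and leaving out DTA+ replicate 1 gave 118 calls. In unmixed mast cells, 66 of 3015 genes (2.19%) were called, 17 (0.564%) with a difference more toward DTA+ in mast cells and 49 (1.63%) more toward DTA-. Of the 20 genes called between genotypes in unmixed cells, 11 were among them. Both the number called and the genes called changed with the library left out, and each of these fits lost some of the 66. The largest called toward DTA- was *AA467197* with a difference of -6.87 in log2 change (adjusted p = 0.00173), then *Tac1* with -5.93 (adjusted p = 7.26e-07). *Tac1* was at 94.2 and 49.6 CPM in DTA- and 103 and 208 CPM in DTA+ over the other kept cells, so its direction there was opposite to that in mast cells, though not called. *Thbs1*, *Fbp1* and *S100a6* followed with -4.29, -3.86 and -3.25. Toward DTA+, *Gse1*, *Cited4*, *Ccl9*, *Pcp4l1* and *Hsph1* had differences between 4.28 and 2.71, each on fewer than 100 mast cell UMIs. *Ctsj* did not pass (adjusted p = 0.335), with almost no UMIs in cells without markers.

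Genes listed as growth factors and attractants of mast cells were read in the kept cells outside the rule. Of the 14 listed genes, which include the receptor gene *S1pr1*, 10 were tested and 0 called, also by DESeq2. *Cxcl12* alone had an unadjusted p under 0.05 in edgeR, as did 15.6% of all genes tested there. *Kitl*, which encodes stem cell factor, was at 24.1 and 49.5 CPM in DTA- and 50.9 and 30.6 CPM in DTA+, a log2 change of 0.14 (SE 0.36, adjusted p = 0.880). *Cxcl12*, a chemokine for progenitors, was at 115 and 105 against 124 and 157 CPM (log2 change 0.35, adjusted p = 0.307). *Vcam1*, the ligand of the alpha 4 integrin, was at 59.1 and 68.9 against 75.1 and 60.7 CPM (log2 change 0.09, adjusted p = 0.815). *Il33*, the ligand of the receptor encoded by *Il1rl1*, was at 1.80 and 5.29 against 4.15 and 2.05 CPM, and the genotypes overlapped.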

How the data were processed

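The authors made 10x Genomics 3′ libraries of dissociated penises, sequenced them together on 1 flow cell and aligned them to mm10 with the *tdTomato* sequence added. The file headers and the submitters' processing notes name Cell Ranger 4.0.0, the methods version 3. The deposited values are raw UMI counts per gene and barcode, without normalization, for 32287 features, 32285 of them Ensembl genes. No other filter by the authors was found in the deposited counts.

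From these counts, cells were chosen by the rule given with the results. The members and gene lists were chosen with earlier results of these data known. Counts were summed per sample over all mast cells, over those without mixed type and over other kept cells. Sums were tested between genotypes with edgeR 4.0.16 in R 4.3.3 by its quasi-likelihood test with TMM factors, filterByExpr and genotype as the only term, and p-values were adjusted over all genes tested after Benjamini and Hochberg. The interaction used mast cells and cells with 0 of the 6 markers, with the sample as a block. A standard error is the size of the log2 fold change divided by the square root of F. UMIs count 3′ ends, so no length correction was made. No doublet caller was run, and shares are shares of kept cells.

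Genes were named from the lists. They were also named as the 25 with the highest lowest-of-4 ratio to other cells after adding 10 CPM (detected in at least 20% of the mast cells of every sample), up to 10 called genes per direction of at least 50 CPM without overlap between genotypes (or the 5 with the smallest p in a direction), and 5 per direction of the interaction. The remaining genes called in unmixed cells, and the rare genes of single cells, were named after their values were seen. Alternatives were edgeR's likelihood ratio test, DESeq2 1.42.0, other factors and filters, the replicate block, other cell limits, thinning and leaving out each library.

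On simulated counts with 200 genes changed, 0 to 6.5% of changes of 1 on the log2 scale and 63 to 73.5% of changes of 2 were recovered over all mast cells, and 0 to 5.5% and 69.5 to 80% in unmixed cells. With changes of 2, 1 to 7 and 2 to 8 unchanged genes were called as well, and with changes of 1, 0 in both. The counts were drawn with the same fixed dispersion for every gene. Genes with most UMIs in 1 cell, as some called genes had, were not simulated, so these rates need not hold for them. Gene positions are from the GRCm38 annotation and upstream sequences from RefSeq. Python 3.11.15 with numpy 2.4.6, scipy 1.17.1, pandas 2.3.3 and matplotlib 3.10.9 did the rest.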

Additional observations from a re-analysis of the deposited data

Results flagged for a closer look

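In unmixed mast cells, 66 genes had a genotype difference that differed from that in cells without any of the 6 markers, by the interaction term of edgeR's quasi-likelihood test. The named genes with the largest differences in log2 fold change were *Gse1* (4.28), *Cited4* (3.80), *Ccl9* (2.99), *Pcp4l1* (2.87) and *Hsph1* (2.71) toward DTA+. Toward DTA- they were *AA467197* (-6.87), *Tac1* (-5.93), *Thbs1* (-4.29), *Fbp1* (-3.86) and *S100a6* (-3.25). *Ccl9* came from 1, 1, 2 and 2 cells and *Tac1* from 3, 6, 1 and 1 cells of the 4 samples. *Pcp4l1* was also called in the other kept cells, lower in DTA+ (log2 fold change -1.65, adjusted p = 0.0496), whereas it was at 23.4 and 41.4 CPM in DTA- and 84.5 and 83.3 CPM in DTA+ unmixed mast cells.

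The *tdTomato* reporter, which belongs to no comparison of the study in mast cells, had 84 UMIs in DTA+ mast cells and 0 in DTA- mast cells. The share of cells with a reporter UMI is given with those of other cell types in the results, and whether the mRNA was made in the mast cells was not tested.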

How the results depend on the processing

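The number of called genes depended on the test, the cells and the libraries. Over all mast cells, where 0 were called, the likelihood ratio test called 13, DESeq2 3, no filter on low counts 62, at least 4 markers 3 and leaving out mixed cells 20, and leaving out each library gave 0 to 164, the 164 without DTA+ replicate 1. In unmixed cells, where 20 were called, the likelihood ratio test called 75, DESeq2 10, no filter 71, at least 4 markers 39 and leaving out each library 37 to 111. For the interaction over all mast cells, 19 were called by the likelihood ratio test, 56 with no filter, 66 in unmixed cells and 0 to 118 without each library, and in unmixed cells 31 to 59 without each library. Of the list genes, where 0 were called, 5 were called by the likelihood ratio test, 19 with no filter, 5 in unmixed cells and 0 to 24 without each library. Of the 10 genes that DESeq2 called in unmixed cells, 8 were among the 20. The cause of these moves was not tested. With 1 library left in a genotype, it is taken to vary like the pair of the other genotype.

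The log2 ratio of shares was -0.25 and turned to 0.16 in unmixed cells and 0.28 without DTA+ replicate 2, within a range of -1.10 to 0.28 over the libraries left out. *Mcpt1* turned to -0.15 with no upper limit on UMIs. With the replicate number as a block, 7 genes were called over all mast cells, 95 in unmixed cells and 3 of the list genes. The labels give the replicates only as numbers, which were not taken as pairing. Same-numbered samples correlated at r = 0.07 in their deviations from the genotype means. With 2 samples per genotype both pairs give the same r by construction, so it cannot decide on pairing. The block was not run for the interaction, which already holds the sample as a block. No growth factor gene was called in other cells under any alternative. The alternatives for unmixed cells, the unmixed interaction and the missing upper limit were added after seeing the data. Each mast cell sum rests on 31 to 101 cells and each genotype on 2 libraries. On simulated counts with the same fixed dispersion for every gene, few changes of 1 on the log2 scale were recovered. The shares recovered were 0 to 6.5% over all mast cells and 8.5 to 18.5% in other kept cells.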
